A study of Mus musculus with 6 samples.

Results

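The enzymes that couple drugs, hormones, bilirubin and bile acids to glucuronic acid or sulfate were followed as 44 genes of 52323 in the count table. They were chosen by symbol and comprise 21 UDP-glucuronosyltransferase (UGT) genes of the Ugt1a, Ugt2a, Ugt2b and Ugt3a groups, 21 cytosolic sulfotransferase (Sult) genes, and the 2 PAPS synthases Papss1 and Papss2. RNA was sequenced from damaged mouse hepatocytes (dHeps) taken from livers injured with CCl4, a hepatotoxin. All 6 cultures came from AAV-TBG-Cre:Rosa-LSL-tdTomato mice, in which a virus with the hepatocyte promoter TBG drives Cre and so switches on the tdTomato reporter, and all were kept in serum-free Hepatocyte Maintenance Medium for 16 days. The 3 groups held 2 libraries each. DMSO cultures received the solvent. 3C cultures received CID755673 (an inhibitor of protein kinase D) at 50 µM, GSK429286A (a ROCK inhibitor) at 2 µM and ETC-1002 (bempedoic acid) at 5 µM. 5C cultures received those 3 compounds at the same doses plus salidroside at 5 µM and forskolin, an activator of adenylate cyclase, at 2 µM. The labels give neither sex nor age, and they do not say whether the 2 libraries of a group came from separate animals, so the p-values below measure the spread between these libraries, which may be technical.

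Conjugation is the second step of detoxification in the liver. UGTs sit in the membrane of the endoplasmic reticulum and transfer glucuronic acid from UDP-glucuronic acid, whereas SULTs work in the cytosol and take sulfate from the donor PAPS, which the PAPS synthases make. The conjugates are more soluble in water and leave the cell through ABC transporters, and nuclear receptors such as CAR, PXR and PPARA are known regulators of many of these genes.

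The Ugt1a genes share most of their sequence, and this limits every value given for one of them. Each has its own first exon on chromosome 1 (GRCm39) and is spliced to the same 4 exons that begin at position 88142766. The 60 bases across that junction are shown for the 6 tested Ugt1a genes, with the last 30 bases of the own exon in lower case and the first 30 of the common exons in capitals.
Ugt1a1: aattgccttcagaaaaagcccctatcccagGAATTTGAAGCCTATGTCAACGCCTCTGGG
Ugt1a2: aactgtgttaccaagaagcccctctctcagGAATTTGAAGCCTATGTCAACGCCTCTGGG
Ugt1a5: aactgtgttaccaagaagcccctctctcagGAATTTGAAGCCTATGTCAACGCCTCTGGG
Ugt1a6a: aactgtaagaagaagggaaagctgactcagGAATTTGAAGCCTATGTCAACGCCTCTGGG
Ugt1a6b: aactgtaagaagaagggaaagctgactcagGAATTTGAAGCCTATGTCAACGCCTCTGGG
Ugt1a7c: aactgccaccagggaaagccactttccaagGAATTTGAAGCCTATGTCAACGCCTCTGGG
The capitals are identical in all 6, so a fragment from the common exons does not show which gene it came from. Ugt1a2 and Ugt1a5 also have the same 30 bases before the junction, as do Ugt1a6a and Ugt1a6b. Between 70.9% and 98.4% of the 50-base words in the transcripts of these 6 genes occurred in a transcript of another gene. The lowest share was that of Ugt1a7c and the highest that of Ugt1a6a. Of the words of Ugt1a6a, 97.1% lay in transcripts of Ugt1a7c, so the division of fragments between these genes is uncertain. Among the own exons of 1 transcript per gene, the overlap was far smaller for Ugt1a1, with 0% of words in another Ugt1a own exon, than for Ugt1a6a, with 42.7%. Over the whole Ugt1a1 transcript, however, 86.8% of words lay in any other gene and 71.3% in other Ugt1a genes. Some were thus shared only with genes outside Ugt1a, so the 0% does not make the Ugt1a1 value free of shared fragments. The lengths implied by the deposited counts and FPKM were 2203 to 2304 bases for 5 of these genes and 3094 for Ugt1a7c, all longer than the own exons of 900 to 1008 bases, so the lengths used reached into the common exons.

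**Figure D1:**
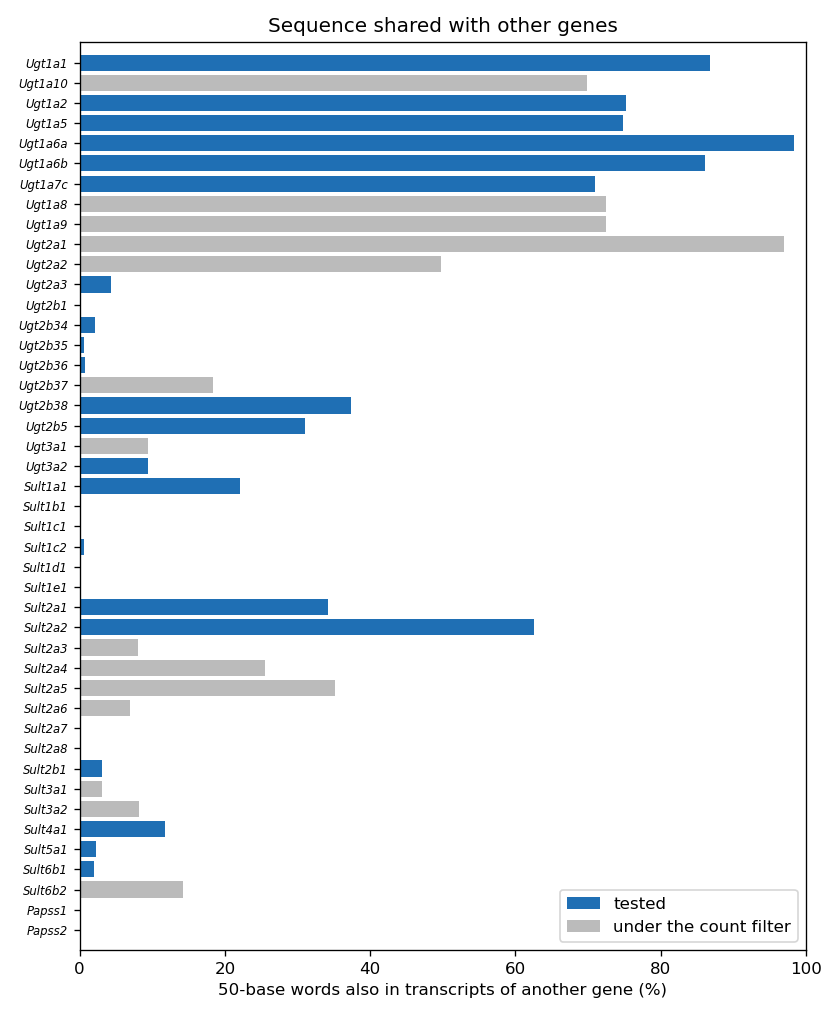
Percentage of the 50-base words of each member's transcript that also occur in transcripts of another gene (x axis, %), 1 bar per gene, blue for the tested genes and grey for those under the count filter. The Ugt1a genes lie between 69.8% and 98.4%, Sult2a2 reaches 62.5%, and most Sult1 and Ugt2b genes lie near 0.

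On GRCm39, Ugt1a1 spans chr1:88139679-88147724, Ugt2b5 chr5:87272226-87288211 and Ugt2b36 chr5:87212668-87240422 in the Ugt2 cluster of chromosome 5, Sult1d1 chr5:87702504-87716933 on the same chromosome, and Sult1a1 chr7:126271299-126275615 and Sult2a2 chr7:13467428-13513568 lie on chromosome 7. Of the 44 members, 28 passed the filter on low counts and were tested. Of the 16 others, Sult1c1, Sult2a4, Sult2a6, Sult2a7, Sult3a1, Sult3a2, Sult6b2, Ugt1a10, Ugt2a1, Ugt2a2 and Ugt2b37 were listed at 0 in every library. Sult2a3, Sult2a5, Ugt1a9 and Ugt3a1 never exceeded an estimated count of 14. Ugt1a8 had an estimated count of 304 in library 3C 1 and 0 in the other 5. A gene that passes the filter through the group in which it is high has to differ, so the counts of called genes below describe the 28 and are read only against the same counts over all genes.

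Libraries were even in depth, with totals of 65916573 to 69245895 estimated counts, and levels are given as CPM (estimated counts divided by the library total and scaled). Markers of several cell types were present. Summed over 10 macrophage markers, the level was 9405 to 9686 CPM in DMSO, 3252 to 3272 in 3C and 2116 to 2158 in 5C, and 8 of the 10 were lower in each cocktail. Summed over 10 hepatocyte markers it was 2334 to 2684 CPM in DMSO, 10619 to 11045 in 3C and 9878 to 14483 in 5C, with 9 of 10 higher in 3C and 8 in 5C. Of 5 cholangiocyte markers 2 were called higher in 5C and 3 in 3C, while their sum, mostly Spp1, was 2901 to 3383 CPM in DMSO, 3514 to 3696 in 3C and 2385 to 2683 in 5C. Of 5 tested endothelial markers 3 (Pecam1, Cdh5 and Kdr) were called higher and 1 (Lyve1) lower in 5C, with 2 higher and 1 lower in 3C. Their sum over 6 genes, mostly Lyve1 in DMSO, was 327 to 337 CPM in DMSO, 87.9 to 118 in 3C and 139 to 213 in 5C. Of 7 stellate and fibroblast markers 3 were called higher in 5C, and 1 higher and 1 lower in 3C, with sums of 6091 to 7190, 5729 to 5784 and 9839 to 10443 CPM. Of 5 mesothelial markers 4 were called higher in 5C, with sums of 947 to 1136, 1166 to 1272 and 2026 to 2107 CPM. None of these markers was at 0 in every library. In bulk RNA, fewer cells of a type and less RNA per cell cannot be told apart, and the part of this shift in the results below was not tested. The Y-linked genes Ddx3y, Uty, Kdm5d and Eif2s3y were at 0 in all 6 libraries. The X-linked gene Xist, listed with them, was at 603 and 365 CPM in DMSO, 590 and 618 in 3C, and 499 and 557 in 5C.

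Conjugation genes for bilirubin (Ugt1a1), steroids (Ugt2b5, Ugt2b36) and amines (Sult1d1) were higher in both cocktails than in DMSO, while the PAPS synthases were not called. A gene was called when edgeR's quasi-likelihood test gave an adjusted p (Benjamini-Hochberg over 19135 genes) under 0.05 and the absolute log2 fold change exceeded 1. In 5C against DMSO 13 of the 28 tested members were called, all higher, where 11.7% of all tested genes were called, 7.3% higher and 4.42% lower. In 3C against DMSO 13 were called, again all higher, against 9.45% of all genes in either direction, 5.83% higher and 3.62% lower. The count of 0 lower was also 0 with DESeq2 and with limma in both comparisons. In each, however, 1 member was lower at an unadjusted and also an adjusted p under 0.05, and only the fold limit left it uncalled. These were Ugt2b34 in 5C, at -0.41 (adjusted p = 0.00811), and Ugt1a7c in 3C, at -0.55 (adjusted p = 0.00524). In 5C against 3C 4 were called higher and 1 lower, against 3.01% of all genes called (2.16% higher and 0.852% lower). That count of 5 was 1 (Ugt1a1) without 3C replicate 1 and 2 (Ugt1a1 and Ugt1a5) without 5C replicate 2. Both comparisons with DMSO share the DMSO libraries. Values for 2 libraries are given throughout in the order replicate 1, replicate 2, and fold changes are log2 values. The standard error (SE) beside them is the absolute log2 fold change divided by the square root of the test's F statistic. It was derived from the test and not estimated separately, and is least reliable for genes near 0 in a group.

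**Figure D2:**
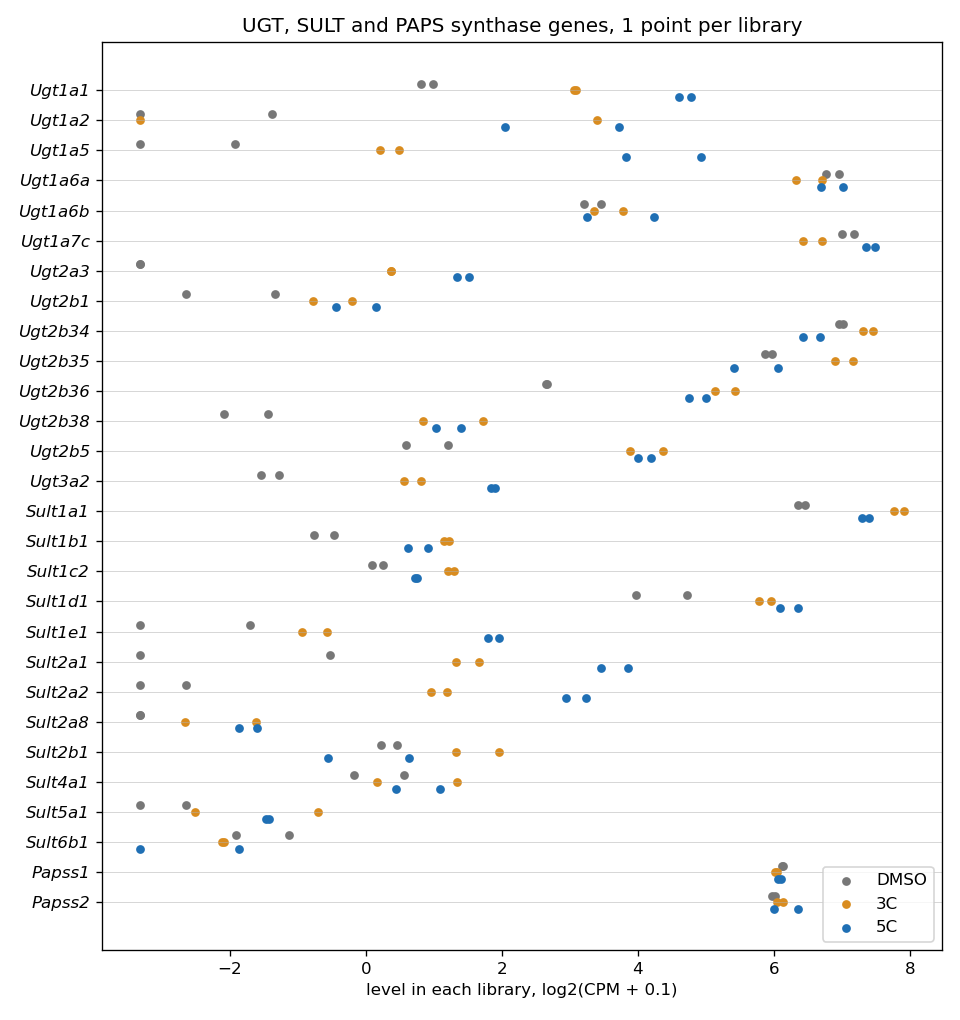
Level of the 28 tested members in each of the 6 libraries as log2(CPM + 0.1) on the x axis, 1 point per library, grey for DMSO, orange for 3C and blue for 5C. Ugt1a1 runs from 1.65 CPM in the lower DMSO library to 27.5 in the higher 5C library, whereas Papss1 stays between 64.5 and 70.3 CPM.

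**Figure D3:**
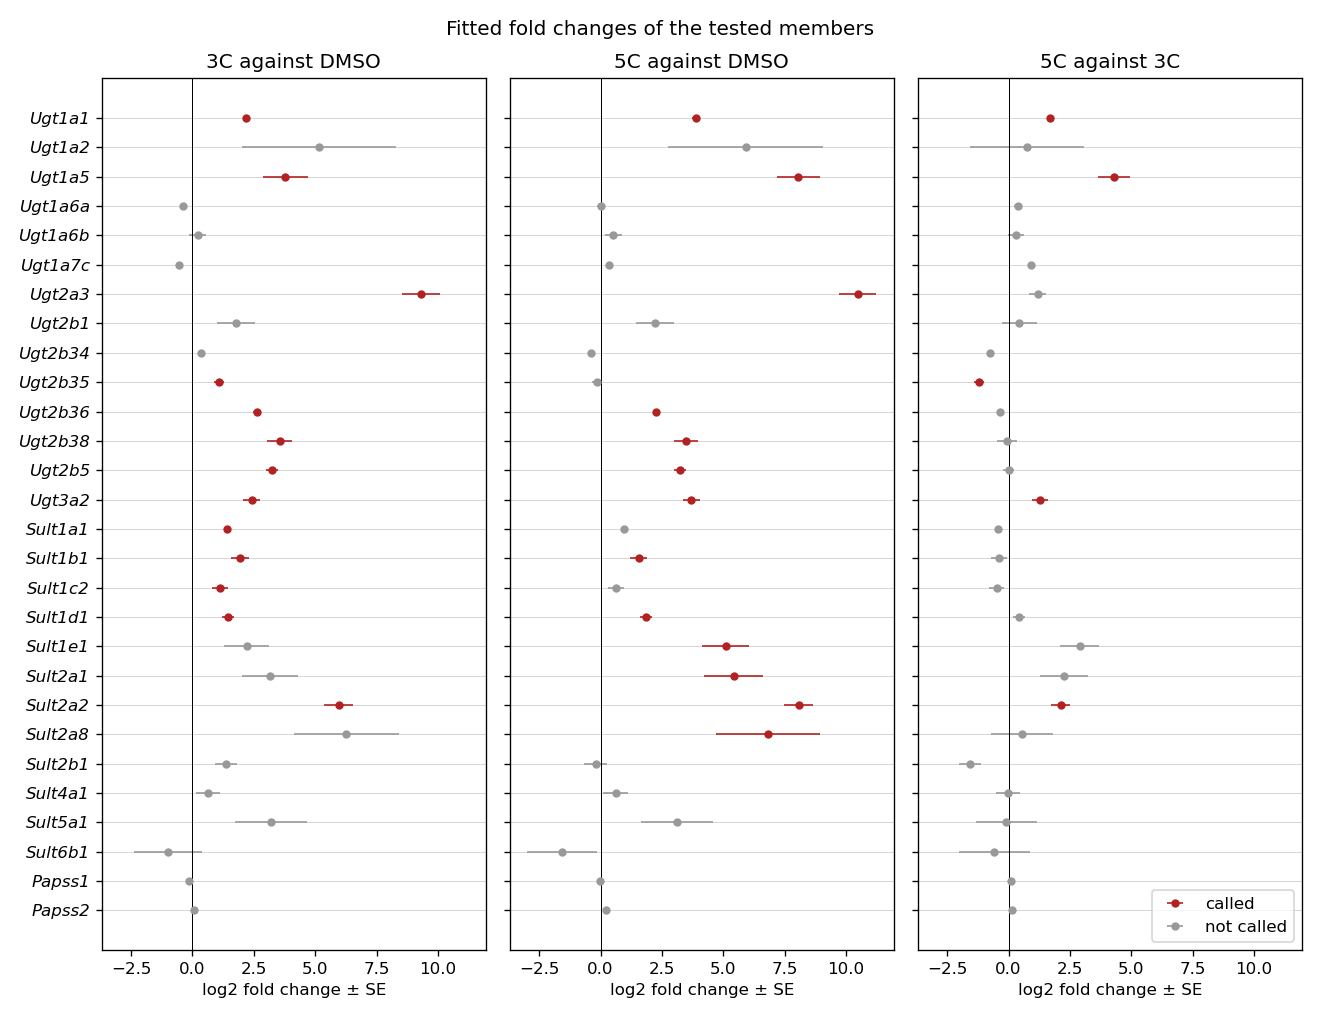
Fitted log2 fold change with its standard error derived from the F statistic (x axis) of each tested member in the 3 comparisons, red where called and grey where not. The 3 panels share 1 scale, and the called members lie to the right of 0 in both comparisons with DMSO, and Ugt2b35 is the member called lower in 5C against 3C. The points of Ugt2a3, Sult2a2, Sult2a8 and Ugt1a5 against DMSO depend on the prior count because both DMSO libraries were at or near 0.

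Within the Ugt1a locus, Ugt1a1, the main bilirubin-conjugating enzyme, rose in steps. It stood at 1.89 and 1.65 CPM in DMSO, 8.42 and 8.22 in 3C, and 24.3 and 27.5 in 5C. The 3 groups did not overlap, with DMSO lowest and 5C highest. Its log2 fold change was 3.89 (SE 0.16, adjusted p = 5.33e-07) in 5C against DMSO, 2.20 (SE 0.15, adjusted p = 1.41e-05) in 3C against DMSO and 1.69 (SE 0.14, adjusted p = 0.000266) in 5C against 3C, and the call held under every alternative tried. Ugt1a5 was at 0.164 and 0 CPM in DMSO, 1.06 and 1.3 in 3C, and 30.4 and 14.1 in 5C. Both DMSO libraries were at or under the floor of 12 estimated counts. The 5C mean was 123.4 times that floor (adjusted p = 0.00174 against DMSO) and the 3C mean 6.55 times (adjusted p = 0.0379). These ratios allow for counting error in DMSO only, and not for the spread within a cocktail. These are not bounds on the division of shared fragments, since 74.8% of the words of Ugt1a5 lay in other genes. The 2 libraries of 5C differed from each other by more than those of any other group, and both lay above 3C, with a log2 fold change of 4.28 (SE 0.66, adjusted p = 0.0145). The 3C call was lost without 3C replicate 1, at 3.92 (adjusted p = 0.167), and without 3C replicate 2, at 3.62 (adjusted p = 0.205). The call of 5C over 3C was lost without 3C replicate 1, at 4.14 (adjusted p = 0.186), without 3C replicate 2, at 4.44 (adjusted p = 0.164), and without 5C replicate 1, at 3.64 (adjusted p = 0.0517).

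The abundant Ugt1a genes did not follow Ugt1a1. Since 97.1% of the words of Ugt1a6a lay in transcripts of Ugt1a7c, Ugt1a6a and Ugt1a7c are uncertain as separate values. Ugt1a6a, which conjugates small planar phenols, was at 124 and 109 CPM in DMSO, 104 and 80.3 in 3C, and 103 and 130.0 in 5C. The 5C libraries overlapped both other groups, and it was not called, at 0.02 (SE 0.16, adjusted p = 0.936) in 5C against DMSO. Ugt1a7c was at 145 and 128 CPM in DMSO, 86.1 and 105 in 3C, and 164 and 179 in 5C. It was lowest in 3C and highest in 5C without overlap, but its log2 fold changes of 0.35 (SE 0.11, adjusted p = 0.0384) in 5C and -0.55 (SE 0.11, adjusted p = 0.00524) in 3C against DMSO, and 0.89 (SE 0.11, adjusted p = 0.00122) in 5C against 3C, were under the fold limit. Without 3C replicate 2 the last of these passed it, at 1.05 (adjusted p = 0.00436). Ugt1a6b, at 9.14 and 10.9 CPM in DMSO, 10.1 and 13.7 in 3C, and 9.4 and 18.8 in 5C, was called in no comparison. Ugt1a2 was listed at 0 in DMSO 2 and 3C 1 but at 10.4 CPM in 3C 2, 13.1 in 5C 1 and 4.04 in 5C 2, and it was not called (adjusted p = 0.296 in 5C against DMSO). This gene and Ugt1a8 were thus near 0 in one library of 3C and present in the other.

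Summing the FPKM of the 9 Ugt1a genes depends less on how shared fragments were divided among them. The sum was 97.9 and 82.8 FPKM in DMSO, 74.3 and 78.7 in 3C, and 121 and 129 in 5C. The groups did not overlap, with 3C lowest and 5C highest. As a ratio, the difference was small beside those of Ugt1a1 and Ugt1a5, but in FPKM it was larger. The mean sum was 90.4 FPKM in DMSO and 125 in 5C. For Ugt1a1 the means were 0.723 and 10.5 FPKM, and for Ugt1a5 0.0329 and 9.16.

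**Figure D4:**
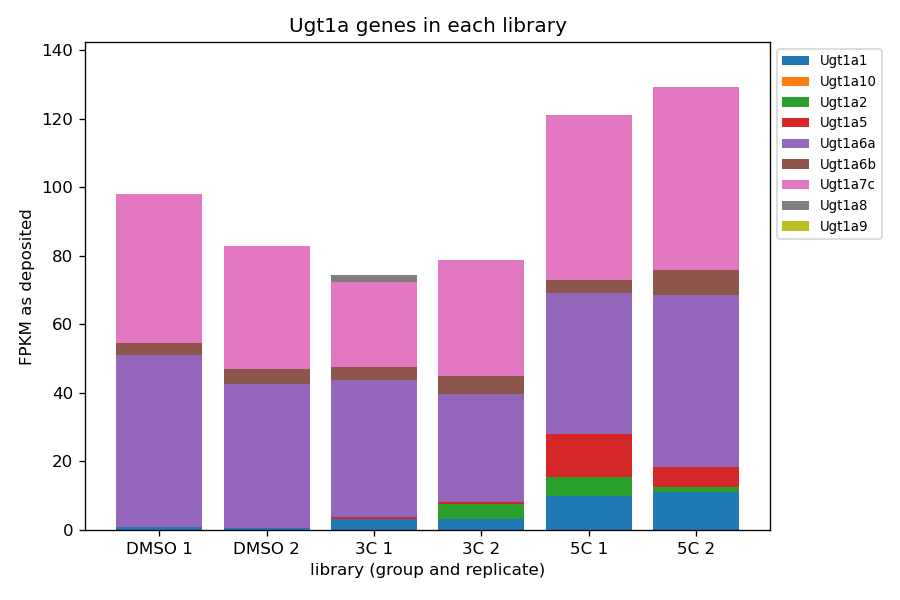
Deposited FPKM of the 9 Ugt1a genes stacked for each of the 6 libraries (y axis, FPKM), 1 colour per gene. Ugt1a6a and Ugt1a7c make up most of every bar, and the Ugt1a1 and Ugt1a5 segments are largest in the 5C libraries.

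The Ugt2b genes conjugate steroids and many drugs, and 3 of the 6 tested were higher in both cocktails. Ugt2b5 was at 2.2 and 1.41 CPM in DMSO, 20.6 and 14.7 in 3C, and 18.1 and 15.9 in 5C. DMSO was lowest, 3C and 5C overlapped, and the log2 fold changes were 3.25 (SE 0.24, adjusted p = 1.43e-05) in 5C and 3.25 (SE 0.24, adjusted p = 2.1e-05) in 3C. Ugt2b36 was at 6.27 and 6.16 CPM in DMSO, 43.2 and 35 in 3C, and 32 and 26.9 in 5C. Again DMSO was apart from both cocktails, with 2.26 (SE 0.14, adjusted p = 4.43e-06) in 5C and 2.62 (SE 0.14, adjusted p = 3.87e-06) in 3C. Ugt2b38 was at 0.268 and 0.137 CPM in DMSO, 3.19 and 1.69 in 3C, and 1.95 and 2.54 in 5C, with 3.48 (SE 0.49, adjusted p = 0.000697) in 5C and 3.55 (SE 0.49, adjusted p = 0.000766) in 3C. Ugt2b38 and Ugt2b5 shared 37.4% and 31.0% of their words with other genes, mostly each other, and so are uncertain as separate values.

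Ugt2b35 differed between the cocktails. It was at 62.8 and 58.5 CPM in DMSO, 144 and 119 in 3C, and 67 and 42.5 in 5C. Both 3C libraries were above all others, and 5C overlapped DMSO. It was called higher in 3C against DMSO, at 1.08 (SE 0.21, adjusted p = 0.0149), and lower in 5C against 3C, at -1.21 (SE 0.21, adjusted p = 0.0182). Neither call was stable to leaving out a library. The first was lost without DMSO replicate 1, at 1.12 (adjusted p = 0.119), DMSO replicate 2, at 1.05 (adjusted p = 0.137), or 3C replicate 1, at 0.94 (adjusted p = 0.0688). The second was lost without DMSO replicate 1, at -1.21 (adjusted p = 0.0746), DMSO replicate 2, at -1.22 (adjusted p = 0.0811), 3C replicate 1, at -1.07 (adjusted p = 0.0863), or 5C replicate 2, at -0.94 (adjusted p = 0.00594). Ugt2b34 showed the same order at a smaller size, with 124 and 129 CPM in DMSO, 175 and 158 in 3C, and 102 and 86.2 in 5C. Its groups did not overlap, and its log2 fold changes of -0.41 (SE 0.09, adjusted p = 0.00811) in 5C and 0.37 (SE 0.09, adjusted p = 0.0154) in 3C against DMSO, and -0.77 (SE 0.09, adjusted p = 0.00102) in 5C against 3C, stayed under the fold limit. Ugt2b1, at 1.01 CPM or less in every library, was not called. It passed in 5C with DESeq2, at 2.22 (adjusted p = 0.0381), and without DMSO replicate 1, at 3.73 (adjusted p = 0.0162) in 5C and 3.28 (adjusted p = 0.0306) in 3C.

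Outside these groups, Ugt2a3, which is expressed in liver and gut, was at 0 and 0 CPM in DMSO, 1.19 and 1.19 in 3C, and 2.77 and 2.44 in 5C. It was at 0 in both DMSO libraries. Its mean was 14.4 times the DMSO floor in 5C (adjusted p = 2.59e-05 against DMSO) and 6.6 times in 3C (adjusted p = 8.19e-05). The 5C libraries lay above those of 3C, at 1.18 (SE 0.36, adjusted p = 0.0769), which passed the test without DMSO replicate 1, at 1.18 (adjusted p = 0.0453), or DMSO replicate 2, at 1.17 (adjusted p = 0.0464). The Ugt3a enzymes use other UDP-sugars. The gene that the count table names Ugt3a2 (ENSMUSG00000049152) is named Ugt3a1 in the GENCODE annotation used here, which swaps the names of these neighbours, so its symbol is uncertain and the table's is kept. Ugt3a2 was at 0.313 and 0.243 CPM in DMSO, 1.66 and 1.38 in 3C, and 3.63 and 3.49 in 5C. The groups did not overlap, and it was called in 5C against DMSO at 3.69 (SE 0.35, adjusted p = 6.04e-05), in 3C against DMSO at 2.41 (SE 0.34, adjusted p = 0.000865) and in 5C against 3C at 1.28 (SE 0.31, adjusted p = 0.0266). The last call was lost without 3C replicate 1, at 1.42 (adjusted p = 0.113), 3C replicate 2, at 1.16 (adjusted p = 0.184), 5C replicate 1, at 1.26 (adjusted p = 0.122), or 5C replicate 2, at 1.29 (adjusted p = 0.126). Ugt8a, a galactosyltransferase of the same superfamily that the symbol rule leaves out, was at 0.134 and 0 CPM in DMSO, 0.846 and 0.557 in 3C, and 0.941 and 1.37 in 5C.

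Among the sulfotransferases, Sult1a1, the main phenol sulfotransferase, had the highest FPKM of the 42 enzymes in every group. It was at 81.8 and 88 CPM in DMSO, 217 and 241 in 3C, and 157 and 169 in 5C. The groups did not overlap, and 3C was highest. The log2 fold change was 1.40 (SE 0.09, adjusted p = 7.8e-06) in 3C and 0.96 (SE 0.09, adjusted p = 3.98e-05) in 5C against DMSO, the latter just under the fold limit, and -0.44 (SE 0.08, adjusted p = 0.00961) in 5C against 3C. The 5C value passed the limit without DMSO replicate 2, at 1.03 (adjusted p = 0.000143), or without 5C replicate 1, at 1.02 (adjusted p = 0.00027). Of its words, 22.1% lay in transcripts of another gene, nearly all in Sgf29 on the opposite strand.

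Sult1d1, which sulfates catecholamines and other amines, was at 26.4 and 15.7 CPM in DMSO, 61.9 and 55 in 3C, and 68 and 81.9 in 5C. Both cocktails lay above DMSO and did not overlap each other, at 1.86 (SE 0.25, adjusted p = 0.00328) in 5C and 1.44 (SE 0.25, adjusted p = 0.00977) in 3C. The 3C call was lost without 3C replicate 1, at 1.36 (adjusted p = 0.0685), or 3C replicate 2, at 1.52 (adjusted p = 0.0508). Sult1b1, a thyroid hormone sulfotransferase, was at 0.491 and 0.622 CPM in DMSO, 2.13 and 2.24 in 3C, and 1.78 and 1.44 in 5C. DMSO was lowest, with 1.55 (SE 0.35, adjusted p = 0.0097) in 5C and 1.94 (SE 0.35, adjusted p = 0.00355) in 3C, and the 5C call was lost without 5C replicate 1, at 1.40 (adjusted p = 0.0578).

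Sult1c2 was at 0.968 and 1.09 CPM in DMSO, 2.22 and 2.35 in 3C, and 1.58 and 1.56 in 5C. The groups did not overlap and 3C was highest, at 1.11 (SE 0.31, adjusted p = 0.03) against DMSO, while 5C gave 0.62 (SE 0.31, adjusted p = 0.183). The 3C call was lost without DMSO replicate 1, at 1.02 (adjusted p = 0.11), DMSO replicate 2, at 1.22 (adjusted p = 0.0608), 3C replicate 1, at 1.16 (adjusted p = 0.116), or 3C replicate 2, at 1.07 (adjusted p = 0.147). Sult1e1, the estrogen sulfotransferase, was at 0.208 and 0 CPM in DMSO, 0.423 and 0.572 in 3C, and 3.37 and 3.77 in 5C. Both 5C libraries were above all others, at 5.09 (SE 0.94, adjusted p = 0.00584) against DMSO (10.94 without DMSO replicate 1, fitted against a library at 0 and no bound), whereas 3C gave 2.20 (SE 0.93, adjusted p = 0.142) and 5C against 3C gave 2.89 (SE 0.81, adjusted p = 0.0621). The last 2 depended on the DMSO libraries. Without DMSO replicate 1 they were 8.05 (adjusted p = 0.00128) and 2.89 (adjusted p = 0.00144), and without DMSO replicate 2 the second was 2.89 (adjusted p = 0.00127).

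The Sult2a genes encode hydroxysteroid and bile acid sulfotransferases. Sult2a1 and Sult2a2 lie on opposite strands of chromosome 7 and share part of their transcripts. Of the words of Sult2a1, 29.5% lay in Sult2a2 and 34.2% in any other gene, and of those of Sult2a2, 40.9% lay in Sult2a1 and 62.5% in any other gene. The 150 bases before their starts are shown with those of Ugt1a1 and Ugt2a3, 4 of the members called in 5C that hold the half-site of the liver factor HNF1 (GTTAAT, either strand, in capitals), chosen for that half-site. They were read from GRCm39 at chr7:13571338-13571487 (minus strand), chr7:13467278-13467427 (plus strand), chr1:88139529-88139678 (plus strand) and chr5:87485056-87485205 (minus strand).
Sult2a1: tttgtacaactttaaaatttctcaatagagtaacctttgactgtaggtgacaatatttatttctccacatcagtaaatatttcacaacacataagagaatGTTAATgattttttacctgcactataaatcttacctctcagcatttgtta
Sult2a2: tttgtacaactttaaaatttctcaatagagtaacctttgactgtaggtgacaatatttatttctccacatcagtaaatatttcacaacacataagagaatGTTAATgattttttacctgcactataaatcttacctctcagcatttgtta
Ugt1a1: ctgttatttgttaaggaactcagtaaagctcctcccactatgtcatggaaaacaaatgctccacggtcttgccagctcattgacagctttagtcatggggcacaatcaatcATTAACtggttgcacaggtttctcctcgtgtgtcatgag
Ugt2a3: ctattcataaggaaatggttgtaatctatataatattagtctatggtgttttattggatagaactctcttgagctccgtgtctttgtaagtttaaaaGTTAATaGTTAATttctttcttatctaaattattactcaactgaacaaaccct
The first pair had 0 mismatches over the 150 bases. Of the 13 members called in 5C against DMSO, 5 held GTTAAT in 250 bases and 8, among them Ugt2b5, Ugt2b36 and Ugt1a5, did not, beside 3 of the 15 tested members not called there. GTTAAT occurred within 250 bases upstream of 18 of the 44 members, 8 of them tested, and in 6.28% of 21770 promoters of the same length. Of the other motifs searched on both strands, the AHR core GCGTG was upstream of 4 of the 44 and of 31.2% of all promoters, and the NRF2 core TGACNNNGC and the HNF4A motif CAAAGTCCA were upstream of 0 of the 44, beside 9.69% and 0.372% of all promoters. A match of letters is a description and not a binding site.

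Sult2a2 was at 0.0596 and 0 CPM in DMSO, 1.84 and 2.18 in 3C, and 7.59 and 9.3 in 5C. Both DMSO libraries were at or under the floor, the groups did not overlap, and 5C was highest. The Sult2a2 mean in 5C was 46.8 times that floor (adjusted p = 1.26e-05 against DMSO). This allows for counting error in DMSO only, and not for the spread within 5C or the division of shared fragments. In 3C the mean was 11.2 times the floor (adjusted p = 0.00011), and 5C exceeded 3C at 2.12 (SE 0.38, adjusted p = 0.00725). That difference lost its call without 3C replicate 1, at 2.00 (adjusted p = 0.0697), or 5C replicate 2, at 1.94 (adjusted p = 0.0775). Sult2a1 was at 0.596 and 0 CPM in DMSO, 2.4 and 3.06 in 3C, and 10.9 and 14.3 in 5C. The order of the groups was the same, and the fitted change was 5.42 (SE 1.18, adjusted p = 0.0327) in 5C, 3.16 (SE 1.14, adjusted p = 0.134) in 3C and 2.26 (SE 0.97, adjusted p = 0.262) in 5C against 3C. The 5C call was lost without 3C replicate 1, at 5.42 (adjusted p = 0.118), 3C replicate 2, at 5.42 (adjusted p = 0.114), 5C replicate 1, at 5.61 (adjusted p = 0.106), or 5C replicate 2, at 5.19 (adjusted p = 0.133). Without DMSO replicate 1 the 5C value was 12.76, fitted against a library at 0 and no bound. In that case the other 2 comparisons passed, at 10.50 (adjusted p = 7.77e-05) and 2.26 (adjusted p = 0.00076), and without DMSO replicate 2 they were 2.18 (adjusted p = 0.00218) and 2.25 (adjusted p = 0.00062).

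Sult2a8 was barely detected, at 0 and 0 CPM in DMSO, 0.226 and 0.0586 in 3C, and 0.232 and 0.173 in 5C, and its 5C mean was 1.12 times the DMSO floor. Its call in 5C (adjusted p = 0.0449) was lost on leaving out any 1 of the 6 libraries, with adjusted p of 0.144 and 0.141 without DMSO replicates 1 and 2, 0.0963 and 0.0733 without 3C replicates 1 and 2, and 0.161 and 0.129 without 5C replicates 1 and 2. Sult2b1, a cholesterol sulfotransferase, was at 1.07 and 1.27 CPM in DMSO, 2.42 and 3.78 in 3C, and 1.45 and 0.578 in 5C. It was highest in 3C but not called, at 1.37 (SE 0.46, adjusted p = 0.0592) in 3C against DMSO and -1.57 (SE 0.46, adjusted p = 0.0589) in 5C against 3C. The first passed without 5C replicate 1, at 1.37 (adjusted p = 0.0316), or 5C replicate 2, at 1.37 (adjusted p = 0.0274), and the second without 5C replicate 1, at -2.36 (adjusted p = 0.0306). Sult4a1, Sult5a1 and Sult6b1 stayed at or under 2.43 CPM in every library and were called in no comparison.

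The PAPS synthases, which make the sulfate donor, were not called. Papss1 was at 70.3 and 69.1 CPM in DMSO, 64.5 and 66.2 in 3C, and 66.9 and 68.9 in 5C. Papss2 was at 63 and 64.5 CPM in DMSO, 66 and 70.0 in 3C, and 64.1 and 81.7 in 5C. Against DMSO their log2 fold changes were -0.02 (SE 0.07, adjusted p = 0.874) and 0.21 (SE 0.11, adjusted p = 0.213) in 5C. The list for sulfate supply, PAPS transport and PAP removal also held the tyrosylprotein sulfotransferases Tpst1 and Tpst2. Of its 9 tested genes, 1 was called in each cocktail. That gene was the sulfate transporter Slc26a1, at 1.22 and 1.35 CPM in DMSO, 4.06 and 5.61 in 3C, and 9.06 and 8.06 in 5C, with 2.75 (SE 0.25, adjusted p = 4.21e-05) in 5C and 1.88 (SE 0.24, adjusted p = 0.00047) in 3C. The median log2 fold change of the list was 0.07 in 5C and 0.01 in 3C, beside 0.00 and 0.01 over all tested genes.

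Of 5 genes listed for the supply of UDP-glucuronic acid or the removal of glucuronides, 1 was called in each cocktail. That gene was the glucuronidase Gusb, which removes glucuronic acid in lysosomes. Gusb was at 601 and 641 CPM in DMSO, 256 and 267 in 3C, and 198 and 185 in 5C, with -1.68 (SE 0.07, adjusted p = 8.09e-07) in 5C and -1.28 (SE 0.07, adjusted p = 5.83e-06) in 3C, and the macrophage markers fell in the same libraries. Ugdh, which makes UDP-glucuronic acid, was at 163 and 166 CPM in DMSO, 203 and 167 in 3C, and 120.3 and 105 in 5C. Its changes against DMSO, -0.52 (adjusted p = 0.00397) in 5C and 0.14 (adjusted p = 0.383) in 3C, were under the fold limit. So were those of Ugp2, at 0.78 (adjusted p = 7.78e-05) in 5C and 0.85 (adjusted p = 6.23e-05) in 3C. Slc35d1 gave 0.32 (adjusted p = 0.0278) and 0.82 (adjusted p = 0.000214), and Slc35b1 0.08 (adjusted p = 0.411) and -0.25 (adjusted p = 0.0236), in the same order. The list's median over 5 genes was 0.08 in 5C and 0.14 in 3C. Of 4 exporters of conjugates, 1 was called lower in 5C and the rest were not called. Abcc4, at 314 and 340.4 CPM in DMSO, 449 and 371 in 3C, and 139 and 88.7 in 5C, fell at -1.51 (SE 0.22, adjusted p = 0.00393) in 5C against DMSO and -1.80 (SE 0.22, adjusted p = 0.00543) in 5C against 3C. The median of the 4 was -0.02 in 5C and 0.50 in 3C.

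Of 14 receptors and factors known to act on these genes, 4 were called higher in 5C and 5 in 3C, and the rest were not called. Nr1i2, which encodes PXR, was at 7.79 and 7.74 CPM in DMSO, 31.4 and 30.8 in 3C, and 27.7 and 29.98 in 5C. Nr1i3, which encodes CAR, was at 0.536 and 0.592 CPM in DMSO, 2.14 and 1.17 in 3C, and 2.2 and 3.13 in 5C. Ppara was at 5.18 and 4.2 CPM in DMSO, 21.4 and 18.1 in 3C, and 13.1 and 16.9 in 5C. Each lay lower in both DMSO libraries than in any cocktail library and was called in both comparisons with DMSO, as was Hnf4a, at 1.04 in 5C and 1.39 in 3C. Nr1h4, the bile acid receptor FXR, was called in 3C at 1.08 (SE 0.14, adjusted p = 0.00057) and stood at 0.96 (SE 0.14, adjusted p = 0.000958) in 5C. The list's median was 0.28 in 5C and 0.39 in 3C.

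Target genes of these receptors and factors were measured beside them. Most hepatocyte markers were also higher in both cocktails, and the part of that shift in these values was not tested. Cyp3a11, a marker of PXR and CAR, was at 1.44 and 0.516 CPM in DMSO, 18.7 and 12.3 in 3C, and 237 and 244 in 5C. Cyp2b10, a marker of CAR, was at 3.84 and 2.26 CPM in DMSO, 20.6 and 16.3 in 3C, and 78.8 and 78.2 in 5C. Both were called in all 3 comparisons, and Cyp2b10 gave 2.14 (SE 0.21, adjusted p = 0.00119) in 5C against 3C. All 4 PPARA targets were higher in 5C and 3 of 4 in 3C. Cyp4a10 was at 0.372 and 0.288 CPM in DMSO, 6.37 and 4.97 in 3C, and 18.3 and 26.8 in 5C, with 6.11 in 5C and 4.06 in 3C. Cyp4a14 gave 5.80 and 3.74, Acot1 gave 1.17 and 1.34, and Pdk4, called in 5C, gave 1.14 and 0.36. Of 5 AHR targets 1 was higher in each cocktail, Cyp1a2, at 1.23 in 5C and 2.04 in 3C. Of 6 NRF2 targets 1, Gclc, was called, lower in 5C, at -1.15 (SE 0.22, adjusted p = 0.0128) against DMSO and -1.59 (SE 0.22, adjusted p = 0.00922) against 3C.

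In levels per length, few genes made up most of the conjugation transcripts. In DMSO the order by mean FPKM was Sult1a1 at 59.8 ± 1.41 (SD, n = 2), Ugt1a6a at 46.0 ± 5.64, Ugt1a7c at 39.5 ± 5.21, Ugt2b34 at 37.5 ± 0.0546 and Ugt2b35 at 16.4 ± 1.39. Ugt1a7c and Ugt2b34 did not differ beyond that spread. These 5 made up 91.0% of the summed FPKM of the 42 enzymes in DMSO, while the 5 highest made up 80.6% in 3C and 73.2% in 5C. In 3C the second place went to Ugt2b34, at 48.5 ± 2.94 FPKM. In 5C it went to Ugt1a7c, at 50.8 ± 3.83, which overlapped Ugt1a6a at 45.6 ± 6.50. The places of Ugt1a6a and Ugt1a7c also depend on how their shared fragments were divided. The summed FPKM of the 21 SULT genes was 72 and 68.9 FPKM in DMSO, 182 and 201 in 3C, and 163 and 176 in 5C, and that of the 21 UGT genes was 157 and 139.7 FPKM in DMSO, 196 and 184 in 3C, and 198 and 190.0 in 5C. Both sums were higher in every cocktail library than in either DMSO library.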

How the data were processed

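A table of counts and a table of FPKM were used, each with 1 column per library. Libraries were made from total RNA with the NEBNext Ultra kit, and the submitters' processing notes name featureCounts, Subread, DESeq2 and the build GRCm39 without versions. The deposited counts were whole numbers but not plain fragment counts. The value 4 occurred 4816 times against 3121 for 3 and 2303 for 5, so they were treated as estimated counts that the authors had assigned. The FPKM values were deposited by the authors and were used for levels compared between genes. A floor of 12 estimated counts assumes 3 fragments of 4 units each, or 0.173 to 0.182 CPM, and covers counting error only.

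Genes were filtered with filterByExpr, normalized by TMM and fitted with edgeR 4.0.16 (R 4.3.3) over all 6 libraries with no covariate. Alternatives used DESeq2 1.42.0, limma 3.58.1 on log2(FPKM + 1) and log2(FPKM + 0.1), other normalizations, filters and thresholds, and leaving out each library. Where a library was left out, the lone library of its group was assumed to vary like the others. All 44 members were matched by gene ID to GENCODE annotation of GRCm39, in which 42 have the same name and Ugt3a1 and Ugt3a2 are swapped. It also gave the sequences and the share of 50-base words. Members that were called or had a mean FPKM of at least 10 are given for every library, and listed genes where called. Members and lists were chosen with earlier results of these data known.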

Additional observations from a re-analysis of the deposited data

How the results depend on the processing

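With 2 libraries a group, calls near the threshold depended on single libraries, and depth limited genes under the floor of 12 estimated counts. Of 31 called gene values, 15 kept their direction and call under every alternative in which the gene was tested, and none of the 31 changed direction. Some of the 15, such as Sult1e1 and Ugt2a3 in 5C against DMSO, had 16 alternatives instead of 17 because a stricter filter removed the gene. In 5C against DMSO the count of 13 members ranged from 11 to 13 when 1 library was left out and was 6 with at least 10 counts required in every library, a filter that removes genes at 0 in DMSO. In 3C against DMSO the count of 13 ranged from 9 to 14, and was 8 when the null was a change of 1 log2 unit and 8 with limma on log2(FPKM + 1). In 5C against 3C the count of 5 ranged from 1 (Ugt1a1, without 3C replicate 1) to 7. It was 2 (Ugt1a1 and Ugt1a5) without 5C replicate 2, 8 with DESeq2, 8 with no fold limit and 1 (Ugt1a1) with that null. The cause of these shifts was not tested. Over all genes, 2242, 1809 and 576 were called in the 3 comparisons, 5485, 4689 and 2423 with no fold limit, 1160, 771 and 38 with that null, and 1211, 937 and 226 with limma on log2(FPKM + 1).

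Same-numbered libraries did not deviate together (r of -0.0306, 0.0007 and 0.0161 across 19135 genes). With 2 libraries a group this cannot exclude that the numbers pair them, since a small shared effect could be hidden by the spread between libraries. With the replicate block 12, 13 and 5 members were called, and in 5C against DMSO Sult2a1 and Sult2a8 lost their calls and Ugt2b1 gained one, at 2.41 (adjusted p = 0.03815). With limma on log2(FPKM + 1) the 3C calls of Sult1b1, Sult1c2, Ugt1a5, Ugt2a3, Ugt2b38 and Ugt3a2 were lost, as were the 5C calls of Sult1b1 (0.66), Sult2a8 (0.11) and Ugt2b38 (0.91), and that of Ugt3a2 in 5C against 3C (0.58). DESeq2 added Ugt2b1 in 5C, Sult1e1, Sult2a8 and Sult2b1 in 3C, and Sult1e1, Sult2b1 and Ugt2a3 in 5C against 3C. Signs changed only among values that were not called. On the log2 scale, under the block in 5C against 3C, Sult4a1 was 0.0072, Sult5a1 0.035, Ugt2b38 0.027 and Ugt2b5 0.021. Ugt2b5 was also 0.0019 with all genes of at least 1 count and 0.0015 with the 4 libraries of its groups, and Ugt1a6a was -0.015 and -0.016 in 5C against DMSO with limma at pseudocounts 1 and 0.1. Leaving out 1 library changed other signs. In 5C against DMSO the ranges were -0.17 to 0.19 for Ugt1a6a, -0.058 to 0.016 for Papss1, -0.99 to 0.30 for Sult2b1, -0.089 to 0.94 for Ugt1a6b, and -0.48 to 0.15 for Ugt2b35. In 3C against DMSO the ranges were -0.11 to 1.13 for Sult4a1, -6.28 to 11.44 for Ugt1a2, and -0.023 to 0.42 for Ugt1a6b. In 5C against 3C the ranges were -0.22 to 0.26 for Ugt2b5, -0.51 to 0.72 for Sult4a1, -0.31 to 12.19 for Ugt1a2, -0.45 to 0.47 for Ugt2b38, -0.11 to 1.80 for Sult2a8, -0.88 to 1.85 for Sult5a1, -0.055 to 0.33 for Papss2, -6.17 to 0.40 for Sult6b1, and -0.31 to 0.72 for Ugt1a6b.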
